A study of Mus musculus with 122 samples.

Results

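Domain boundaries that remained in place after auxin treatment were chosen by comparing domain lists of mouse embryonic stem cells with and without the treatment that degrades CTCF. A boundary of untreated CTCFL-line cells was selected on having a boundary within 40 kb in untreated CTCF-line cells and in auxin-treated cells of both lines. Of the 2976 boundaries in untreated CTCFL-line cells, 1323 met this rule (44.5%, 95% Wilson interval 42.7 to 46.2%), and they are called resistant here. For comparison, 894 boundaries were found in untreated cells of both lines and in neither auxin-treated list, and they are called lost. Intervals on shares are Wilson intervals throughout and cover counting error only, and differences between classes of boundaries were not tested.

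The study asks how CTCF, and its relative CTCFL, shape chromosome folding and gene activity. All cells derive from the E14Tg2a line (129/Ola, XY), grown without feeders in LIF with the MEK inhibitor PD0325901 and the GSK3 inhibitor CHIR99021. Both Ctcf alleles carry an AID-eGFP fusion, and Tir1, which is expressed from Rosa26, lets auxin (indole-3-acetic acid, IAA) direct the fusion protein to degradation. Each line is homozygous for 1 kind of transgene at the Tigre locus, with a FLAG tag and mRuby2 and driven by doxycycline (Dox). Each line was grown from single picked colonies.

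Untreated cells (U) received neither agent, I cells received IAA at 500 µM, D cells received Dox at 1 µg/ml, and ID cells received both. The sample descriptions give 24 h of treatment, whereas the protocol text gives 2 days for RNA and ChIP and 4 days for Hi-C. The CTCF line and the CTCFL line carry the transgenes for those proteins, and neither transgene is induced in U or I cells. RNA came from 3 CTCFL U, 3 CTCFL I, 2 CTCF U and 3 CTCF I libraries, with between 18820806 and 28917040 reads recovered from the table. For CTCFL I replicate 2 the reads could not be recovered, and its normalized counts sum to 23629038. Hi-C has 2 samples in each condition but 1 domain list per method, so boundary positions carry no replicate error, and the deposited Hi-C and ChIP lists carry no read depths.

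Domains are stretches of a chromosome that contact themselves more than their neighbours, and boundaries separate them. At many boundaries CTCF halts cohesin, the ring complex that extrudes chromatin loops and of which RAD21 is a subunit, while others coincide with active promoters or with changes between active and inactive chromatin. CTCFL, a paralog normally found in the male germ line, has similar zinc fingers but different ends.

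Some resistant boundaries mark the edge of what could be mapped. Of the 1323, 40 were the first or last domain edge of a chromosome and 45 more had over 10% unassembled bases within 40 kb, together 85, against 5 of the 894 lost boundaries. Without these, 1238 resistant boundaries remained, and shares without them are given below where they differ much. The auxin lists are shorter than the untreated ones, with 2580 boundaries in CTCFL I and 2518 in CTCF I, and the median domain was 640 kb in both against 600 kb in both U lists. Of the CTCFL U boundaries, 86.8% had a boundary within 40 kb in CTCF U, 55.0% in CTCF I and 54% in CTCFL I, where 9.25%, 7.59% and 7.78% of the genome lay that near. These values chose the members and are given as a description.

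Most members sat well inside the rule or exactly at its edge, because positions move in steps of 40 kb bins. The largest distance to the 3 lists was 0 kb for 668 members, 20 kb for 3 and 40 kb for 652. Just outside, the distance was 60 kb for 1 boundary and 80 kb for 210. With ends and gaps left out, an expressed start site lay within 40 kb of 57.5% of the members at 0 or 20 kb, 64.6% of those at 40 kb and 55.0% of the boundaries at 60 or 80 kb, but 44.2% of the boundaries beyond 80 kb. In this respect the boundaries just outside the rule resembled the members more than they resembled the boundaries farther out.

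Resistant boundaries were spread over every chromosome examined, 1 to 19 and X. Their share was highest on chromosome 11, with 80 of 157 boundaries (51%, 43.2 to 58.7%), and on chromosome 17, with 54 of 107 (50.5%, 41.1 to 59.8%). It was lowest on the X chromosome, of which these XY cells hold a single copy, with 44 of 152 (28.9%, 22.3 to 36.6%), and the next lowest shares were 40.3% on chromosomes 3 and 12. The median distance from a resistant boundary to the next was 1200 kb, and 14 had a window that met another's, so nearly all windows are separate. With ends and gaps left out, the domains they flank had a median of 560 kb (quartiles 440 and 840 kb), beside 600 kb (440 and 1000 kb) at lost boundaries.

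Active genes lay near more of the resistant than of the lost boundaries. A transcription start site lay within 40 kb of 84.4% of the resistant boundaries (82.4 to 86.3%), and the start site of an expressed gene within 40 kb of 58.1% (55.4 to 60.8%). Lost boundaries had an expressed start site in 47.0% of cases (43.7 to 50.3%), all CTCFL U boundaries in 51.1% and windows around all 40 kb bins in 31.5%. A gene counted as expressed when its normalized count averaged at least 10 over the 3 CTCFL U libraries. The resistant share rose to 61.2% (58.5 to 63.9%) with chromosome ends and assembly gaps left out.

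The windows were also denser in start sites. Resistant boundaries had a mean of 4.08 start sites within 40 kb (median 3), lost boundaries 3.1 (median 2) and all bins 2.35 (median 1). The difference of 0.983 (95% normal interval 0.66 to 1.31) fell to 0.234 (-0.169 to 0.637) with a tolerance of 20 kb and to 0.153 (-0.0542 to 0.36) with Crane lists, where its interval includes 0. At least 3 expressed start sites lay near 31.7% of resistant boundaries (29.2 to 34.2%), beside 23.6% of lost ones (20.9 to 26.5%). The median distance to the closest expressed start site was 26.9 kb from resistant and 45.4 kb from lost boundaries, beside 104.0 kb from all bins. These windows were slightly richer in G+C, at a median of 43.4% against 43% at lost boundaries and 41.2% over all bins, and held 10.4 CpG per kb against 9.57 and 7.54.

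Active promoters were denser within 20 kb of the boundary than farther away. Around resistant boundaries away from ends and gaps, expressed start sites numbered 2.86 per 100 kb within 10 kb, 3.25 from 10 to 20 kb, and 1.62 from 160 to 200 kb, against a genome-wide 1.19. Around lost boundaries the same distances gave 2.11, 2.16 and 1.6, so the classes differed near the boundary and hardly at all at the outer distance. Nor did the genes point in a preferred direction, since 48.3% of 1328 expressed coding genes near resistant boundaries (45.6 to 51%) were transcribed away from the boundary.

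The genes at resistant boundaries were not more often expressed than those at lost ones, but the expressed ones had higher levels. Of 1843 protein-coding genes near resistant boundaries with a value, 75.4% were expressed (73.4 to 77.3%), beside 75.3% near lost boundaries and 65.9% of coding genes overall. Per kb of exon, the median normalized count of the expressed coding genes was 240.0 near resistant boundaries, 163.0 near lost boundaries and 179.0 overall. Near boundaries missing after auxin in the CTCF line alone it was 244.0, and in the CTCFL line alone 227.0, so higher levels were not particular to resistant boundaries. The excess of expressed start sites thus goes with more genes per window and not with a larger fraction of them being active.

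The excess depends on how boundaries are matched. With a tolerance of 20 kb in place of 40 kb, boundaries that moved by a single bin leave the resistant class and can enter the lost class, and an expressed start site was then found at 52.3% of resistant and 54.1% of lost boundaries. With domain lists of the Crane insulation method the shares were 34.4% and 35.1% when both edges of each gap were used, and 46.8% and 39.2% in a setting chosen after the data were seen, with gaps of up to 600 kb taken at their middle. Gaps between Crane domains have a median of 280 kb, and 77.7% of the HiCratio boundaries of CTCFL U lie inside them.

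Among the 5 resistant boundaries with most expressed start sites, all had been kept in each of the 8 domain lists that the rule did not use, and all held at least 2 CTCF sites. The boundary at position 6980000 of chromosome 19 (GRCm38) had 26 start sites, all of them of expressed genes. Next to it lie Plcb3, a phospholipase C, Vegfb, a growth factor of the vascular endothelial family, and Fkbp2 and Dnajc4, which act in protein folding. Plcb3 (chr19:6952325-6976470, minus strand) had normalized counts of 4868, 5352 and 4957 in CTCFL U, a mean of 5059 ± 258 (SD, n = 3). The boundary at 6380000 of chromosome 19 lies near Sf1, a splicing factor that recognises the branch point, with 11190, 12059 and 11041 normalized counts in the same libraries. Neither gene was called after auxin in either line: Plcb3 had log2 fold changes of 0.17 (SE 0.06, adjusted p 3.54e-02) in the CTCFL line and -0.05 (SE 0.08, adjusted p 6.49e-01) in the CTCF line.

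On chromosome 11, the boundary at 70020000 had 25 expressed start sites among 26. Its neighbours include Gabarap, an autophagy protein, Dvl2, a transducer of Wnt signals, Elp5, an Elongator subunit, and Acadvl, a dehydrogenase of fatty acid oxidation in mitochondria. Gabarap stood at 2203 ± 150 normalized counts and Elp5 at 2063 ± 179 (SD, n = 3), and neither was called after auxin. Acadvl was the exception: CTCFL U libraries had 1344, 1086 and 1205 normalized counts, and after auxin it was higher in the CTCFL line with a log2 fold change of 1.07 (SE 0.08, adjusted p 1.57e-09). In the CTCF line the change was 0.97 (SE 0.08, adjusted p 4.57e-07), below the limit of 1, and the call in the CTCFL line was lost without CTCFL U replicate 2.

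The other gene-dense boundaries lie on chromosome 17. At 27540000, 24 of 29 start sites belonged to expressed genes, led by Hmga1, which encodes an architectural chromatin protein, at 4501 ± 401 normalized counts (SD, n = 3). At 25780000, 17 of 26 start sites were of expressed genes, all at modest levels, from Narfl at 322.6 ± 18.4 to Metrn, a secreted factor of the nervous system, at 122.0 ± 40.9 (SD, n = 3). Fam173a at this boundary was called higher after auxin in the CTCFL line, with a log2 fold change just over 1 (SE 0.19, adjusted p 2.34e-04), a call made in 7 of 14 other fits, and had 0.57 (SE 0.14, adjusted p 5.22e-03) in the CTCF line.

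CTCF binding was common at resistant boundaries but less so than at lost ones. The FLAG antibody recovers the transgenic protein, so a CTCF site here is where induced FLAG-CTCF bound in cells without endogenous CTCF (CTCF ID), with a peak in both replicates. The series has no CTCF or RAD21 peak list from U or I cells, so how much CTCF was left at a boundary after auxin was not measured. A CTCF site lay within 40 kb of 74.8% of resistant boundaries (72.4 to 77.1%), 87.9% of lost boundaries (85.6 to 89.9%) and 45.4% of all bins. The difference was -13.1 percentage points (Newcombe 95% interval -16.2 to -9.86), and it shrank to -8.92 with ends and gaps left out, where 79.2% of resistant boundaries had a site. A site also lay near 77.9% of all CTCFL U boundaries and 61.4% of those not in CTCF U. Boundaries missing after auxin in the CTCFL line alone had one in 87.3% of cases. By largest distance, with ends and gaps left out, members at 0 or 20 kb had 74.8% and those at 40 kb 83.2%. Boundaries beyond 80 kb had 80.5%. A share below that of lost boundaries was thus not particular to the resistant class.

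Where CTCF sites were present, they did not differ much in number or strength. Boundaries with a site had a mean of 2.79 CTCF sites within 40 kb in the resistant and 2.71 in the lost class. Over all boundaries the means were 2.09 and 2.38, beside 0.946 in all bins. The strongest site of a window had a median -log10 q of 76.6 at resistant and 71.3 at lost boundaries, where q is the false discovery rate that the peak caller gives. CTCF sites became rarer with distance at both, from 3.06 per 100 kb within 10 kb to 1.48 at 160 to 200 kb around resistant boundaries away from ends and gaps, and from 3.47 to 1.21 around lost ones. The deficit in CTCF sites relative to lost boundaries widened to -20.9 points with a 20 kb tolerance. It changed sign with the Crane lists, at 1.39 points with both gap edges and 0.686 with gap middles.

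CTCF sites and active promoters were found together more often at resistant than at lost boundaries. Both lay within 40 kb of 675 of them (51%, 48.3 to 53.7%), a CTCF site without an expressed start site near 315 (23.8%), and an expressed start site without a CTCF site near 94 (7.11%). At lost boundaries the pair was found in 43.6% (40.4 to 46.9%), and a CTCF site without an expressed start site in 44.3% (41.1 to 47.6%). Of these combinations, a CTCF site without an active promoter thus differed most, being 23.8% of resistant and 44.3% of lost boundaries. The pair of both was found at 45.6% of all CTCFL U boundaries. It was also found at 50.2% of those missing after auxin in the CTCFL line alone (43.6 to 56.9%), so it was not particular to resistant boundaries. In the CTCF line alone it was 38.8% (31.4 to 46.7%).

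The difference in CTCFL sites between resistant and lost boundaries was small and changed sign with the setting. A site of induced FLAG-CTCFL in cells that kept CTCF (CTCFL D) lay within 40 kb of 65.4% of resistant (62.8 to 67.9%) and 66.2% of lost boundaries (63.1 to 69.2%), beside 36.1% of bins. Without endogenous CTCF (CTCFL ID) the shares were 66.8% and 71.0%, a difference of -4.21 points (-8.08 to -0.27), and 70.7% and 71.1% with ends and gaps left out. Most resistant boundaries with a CTCFL D site within 40 kb also had a CTCF site within 40 kb. Of the resistant boundaries, 62.7% had both, 2.65% had a CTCFL D site without a CTCF site, and 12.1% had a CTCF site without a CTCFL D site. At lost boundaries that last share was 23.6% (20.9 to 26.5%). The CTCFL difference of -0.838 points had an interval from -4.83 to 3.2. It was -4.29 (-7.8 to -0.694) without CTCFL D replicate 2 and 2.81 (-1.21 to 6.86) with ends and gaps left out, at 69.1% and 66.3%. It was also positive with a tolerance of 80 kb, both edges of every gap, Crane lists and a minimum -log10 q of 5, at 1.54, 1.96, 1.47 and 0.728, and it moved to -11.6 with a 20 kb tolerance and 7.06 with the middles of Crane gaps.

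CTCF sites near resistant boundaries carried a core of the CTCF motif about as often as other CTCF sites. A core of CCANNAGNNGGC, searched on both strands within 100 bp of the summit, was found at 46.1% of the CTCF sites near resistant boundaries (44.2 to 47.9%), 45.7% of those near lost boundaries and 44.2% of all CTCF sites. Left of resistant boundaries, 34.1% of matches were on the plus strand (30.5 to 37.9%), and right of them 62.7% (58.9 to 66.4%), so that most matches pointed into the domain on their own side. Lost boundaries had 39.1% and 63.6%, and all sites together 50.0%. Such a core is short and is found somewhere in 93.5% of the windows around resistant boundaries, 97.4% of those around lost boundaries and 92.1% of those around all bins.

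To show what these sites look like, the match is printed for the resistant boundaries with the highest -log10 q at a CTCF site, in GRCm38, 5′ to 3′ on the strand of the match, with the core in capitals. The sites lie at chr1:181888947-181888976 (plus strand, -log10 q 162.0), chr17:27534881-27534910 (plus strand, 156.4), chr9:49489082-49489111 (minus strand, 154.9) and chr12:9052258-9052287 (plus strand, 152.8).
Lbr boundary: agacattagCCAGCAGAGGGCgctgcctaa
Hmga1 boundary: cagctatgaCCACGAGGTGGCaacagcgct
Ttc12 boundary: ccattccgcCCACAAGAGGGCagtgctact
Ttc32 boundary: atcatcacaCCATGAGTGGGCctcttagcc
The summit of the fifth, at the boundary at 26900000 of chromosome 17, had no match within 100 bp. Lbr, the lamin B receptor of the inner nuclear membrane, starts within 40 kb of the first boundary and had 7467, 7133 and 7837 normalized counts in CTCFL U. At the fifth lie Kifc5b, a kinesin, and Phf1, an accessory protein of Polycomb repressive complex 2. All 5 boundaries with the strongest CTCF sites had an expressed start site nearby, but the number ranged from 1 to 24. Ttc32 was called lower after auxin in the CTCF line, with a log2 fold change of -1.04 (SE 0.27, adjusted p 7.20e-03). That call was made in 6 of 13 other fits, and in the CTCFL line Ttc32 had -0.45 (SE 0.24, adjusted p 1.40e-01).

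RAD21 was less frequent at resistant boundaries in the CTCF line with Dox, where the replicates were very uneven. In CTCF D, replicate 1 had 22765 peaks and replicate 2 had 3756, and 3450 sites were in both. A RAD21 site lay within 40 kb of 23.3% of resistant (21.1 to 25.6%) and 29.9% of lost boundaries (27.0 to 32.9%), beside 9.58% of all bins. Replicate 1 alone put a RAD21 peak near 66.4% of resistant and 78.9% of lost boundaries, and replicate 2 alone near 24.8% and 31.3%. Leaving out replicate 2 thus moved the difference from -6.59 to -12.4 points, with the same direction.

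In auxin-treated cells with an induced transgene, the contrast in RAD21 was not seen in replicate 1. In CTCF ID, replicate 1 had peaks near 32% of resistant (29.6 to 34.6%) and 33.2% of lost boundaries (30.2 to 36.4%). In CTCFL ID, where induced CTCFL stood in for CTCF, it had peaks near 27.9% (25.5 to 30.4%) and 26.0% (23.2 to 28.9%), whereas CTCFL D had 63.8% and 78.5%. Resistant and lost boundaries were thus nearly equal in this replicate of the ID samples and unequal in that of both D samples, with replicate 1 of each ID sample holding fewer peaks, 8593 and 5821, than that of CTCFL D, 20467. Replicate 2 of CTCF ID had 784 peaks, found near 8.69% of resistant and 6.04% of lost boundaries, and that of CTCFL D had 238 and of CTCFL ID 181. With sites of both replicates, the difference was 0.992 points in CTCFL D and 1.34 in CTCF ID, it was 0.272 for CTCF D peaks of -log10 q of at least 5, and with Crane lists it was 0.379 at both gap edges and 0.245 at gap middles.

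Some resistant boundaries had none of the bound proteins nearby. No CTCF (D or ID), CTCFL (D or ID) or RAD21 (CTCF D) site lay within 40 kb of 264 of the 1323 resistant boundaries (95% interval 17.9 to 22.2%), beside 72 of the 894 lost boundaries (8.05%) and 44.8% of bins. With ends and gaps left out, 193 of 1238 remained (15.6%, 13.7 to 17.7%). Of all CTCFL U boundaries, 17.1% had no such site, and of those not in CTCF U 32.2%. Boundaries missing after auxin in the CTCF line alone had none in 17.8% of cases, and in the CTCFL line alone in 9.39%. Boundaries without a site were thus not particular to the resistant class. Of the 264, 47 had an expressed start site nearby and 217 had none, and 65 of the 217 were at a chromosome end or an assembly gap. Most boundaries without a site thus had no active promoter nearby either.

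The 5 site-free boundaries with most expressed start sites lie on 5 chromosomes. The boundary at 82700000 of chromosome 1 lies near Mff, which recruits the mitochondrial fission machinery and had 2610, 2687 and 2617 normalized counts in CTCFL U. At 91460000 of chromosome 6 lie Tmem43, at 2190 ± 117, and Chchd4, which imports proteins into mitochondria, at 1425 ± 76.2 (SD, n = 3). Zfp317, a zinc finger gene at 19660000 of chromosome 9, had 1425 ± 63.2, and the remaining 2 lie at 34420000 of chromosome 10, beside Nt5dc1, and at 129260000 of chromosome 8, beside long noncoding Gm32856. Of these genes 1 was called: Nt5dc1, at 671.9, 672.0 and 656.1 in CTCFL U, was lower after auxin in the CTCFL line, with a log2 fold change of -1.08 (SE 0.15, adjusted p 3.43e-06), and had -1.0 (SE 0.13, adjusted p 3.16e-05) in the CTCF line.

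The boundaries with neither sites nor active promoters that are named here had few genes. The first 5 such boundaries along the genome are all on chromosome 1, and 2 of them are the chromosome's end and the border of its unassembled start, at 0 and 3020000. The boundaries at 3220000, 9100000 and 34300000 had 1, 0 and 2 start sites within 40 kb, none of an expressed gene. They were present in 5, 8 and 7 of the 8 domain lists that the rule did not use.

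Some housekeeping gene families lay at resistant boundaries more often than coding genes in general. Of all 21755 coding genes, 8.62% start within 40 kb of a resistant boundary (8.25 to 9.0%). Among genes counted as cytosolic ribosomal proteins by symbol it was 17 of 102 (16.7%, 10.7 to 25.1%), or 17 of 92 without the S6 kinases that share the prefix (18.5%, 11.9 to 27.6%). The proteasome had 9 of 50 (18%, 9.77 to 30.8%), translation initiation factors 9 of 54 (16.7%, 9.02 to 28.7%) and RNA polymerase subunits 5 of 28 (17.9%, 7.88 to 35.6%). Near lost boundaries the shares were also above the 4.21% of all coding genes, at 7.61% of ribosomal protein genes without the S6 kinases, 6.0% of proteasome, 7.41% of initiation and 10.7% of polymerase genes. Most of these genes are expressed, and of all 14103 expressed coding genes 9.86% lay at resistant boundaries. Among expressed genes, the shares were 19.1% of ribosomal protein genes without the S6 kinases (12.3 to 28.5%), 19.1% of proteasome (10.4 to 32.5%), 17.0% of initiation (9.2 to 29.2%) and 17.9% of polymerase genes (7.88 to 35.6%). These families are small, and the intervals of initiation and polymerase genes include the share of all expressed coding genes. Mitochondrial ribosomal proteins, at 8 of 78 (10.3%), and zinc finger genes of the Zfp type, at 32 of 394 (8.12%), were near that share.

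The ribosomal protein genes among them are some of the most active in these cells. Rplp1, an acidic protein of the ribosomal stalk, had 24467, 23010 and 21705 normalized counts in CTCFL U and starts 25.5 kb from a resistant boundary. Rpl13 starts 2.35 kb from one and had 12550, 13769 and 11511, and the proteasome subunit gene Psmb1 starts 0.249 kb from one, with 6054, 5858 and 5674. Levels were steady over the libraries in each case. In the limma fits, none of the 17 ribosomal, 9 proteasome, 9 initiation and 5 polymerase genes was called after auxin in either line, nor by edgeR or DESeq2, although 12, 4, 4 and 2 of them in the CTCFL line and 1, 5, 3 and 2 in the CTCF line had an unadjusted p under 0.05. Of all genes tested, 3.69% were called higher and 5.88% lower in the CTCFL line and 5.0% and 5.92% in the CTCF line. The ribosomal protein genes had a median log2 fold change of -0.31 in the CTCFL line and 0.01 in the CTCF line.

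Clustered gene families ranged from well above to well below that share. Of 39 Hox genes, which pattern the body axis, 16 start within 40 kb of a resistant boundary (41%, 27.1 to 56.6%) and none near a lost one. These 16 share 3 boundaries, at 52260000 of chromosome 6 (Hoxa9, Hoxa10, Hoxa11 and Hoxa13), 96260000 of chromosome 11 (Hoxb6 to Hoxb9) and 74700000 of chromosome 2 (Hoxd3, Hoxd4 and Hoxd8 to Hoxd13), so they are far from 16 separate cases. Replication-dependent histone genes had 15 of 67 (22.4%, 14.1 to 33.7%), also at 3 boundaries, and 9 of 67 near lost boundaries (13.4%). Olfactory receptors, at 50 of 1135 (4.41%, 3.36 to 5.76%), and vomeronasal receptors, at 10 of 331 (3.02%, 1.65 to 5.47%), were below the share of all coding genes. In the whole families 3 and 1 genes were expressed, and none of those started near a resistant boundary.

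Most of the Hox genes at resistant boundaries had low levels. Hoxb9 had the highest level, at 525.1, 615.6 and 620.1 normalized counts in CTCFL U, while Hoxd13 had 107.0 ± 7.33 and Hoxd12 had 1.347 ± 2.33 (SD, n = 3). Of the 11 Hox genes tested in the CTCFL line, 1 was called: Hoxb7, at 43.09, 72.14 and 85.93 in U, was higher with a log2 fold change of 1.22 (SE 0.26, adjusted p 8.00e-04), a call lost without CTCFL U replicate 1. Of the 10 tested in the CTCF line, Hoxb8 was the 1 called, and that call was made in 3 of 13 other fits. Of all genes tested, 3.69% in the CTCFL and 5.0% in the CTCF line were called higher. Histone messages of this kind lack a poly(A) tail, and the 15 histone genes had means of at most 16.9 normalized counts in libraries made from poly(A) RNA.

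Few genes at resistant boundaries were lower after auxin. Among 1582 genes tested near resistant boundaries in the CTCFL line, of 3775 annotated symbols there, 61 were higher after auxin (3.86%, 3.01 to 4.92%) where 3.69% of all genes tested were. In the same comparison 49 were lower (3.1%, 2.35 to 4.07%), where 5.88% of all genes tested were. In the CTCF line 84 of 1578 were higher (5.32%, 4.32 to 6.54%), where 5.0% of all genes tested were, and 59 lower (3.74%, 2.91 to 4.79%), where 5.92% were. The share of higher genes was thus near the background in both lines, and that of lower genes was below it in both. With a minimum mean of 50, 43 genes were higher and 45 lower in the CTCFL line, and 49 and 51 in the CTCF line. Over all genes that setting called 1357 of 13215 in the CTCFL line and 1332 of 13061 in the CTCF line, both directions together. The number tested near resistant boundaries is not given for it. Whether the share of lower genes was below the background at that setting was thus not tested. Near lost boundaries 48 of 771 genes were lower in the CTCFL line (6.23%, 4.73 to 8.16%) and 46 of 772 in the CTCF line (5.96%, 4.5 to 7.86%). The median log2 fold change of genes near resistant boundaries was 0.08 in the CTCFL line and 0.06 in the CTCF line, beside 0.04 and 0.03 for all genes. Near lost boundaries the medians were 0.08 and 0.10, and 4.02% and 6.09% of genes were higher, so of these values the share of lower genes differed most between the classes. Calls needed an adjusted p (Benjamini-Hochberg, limma) under 0.01 together with an absolute log2 fold change over 1.

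Mthfd1l and Tiam1 were among the genes lower in both lines. Mthfd1l, a mitochondrial enzyme of folate metabolism, had 1837, 1810 and 1766 normalized counts in CTCFL U and 338.48, 385.24 and 247.98 in CTCFL I, so the groups did not overlap. Its log2 fold change was -2.5 (SE 0.12, adjusted p 9.60e-13), and in the CTCF line, where counts were 2947 and 3006 in U and 382.36, 346.48 and 377.2 in I, it was -3.01 (SE 0.09, adjusted p 8.76e-10). Tiam1, which activates the GTPase Rac1, had 2093, 2254 and 2512 in CTCFL U and 266.68, 241.53 and 249.79 in CTCFL I, with a log2 fold change of -3.17 (SE 0.11, adjusted p 7.11e-15), and -2.59 (SE 0.15, adjusted p 2.61e-08) in the CTCF line. Both genes kept these calls in all other fits of each line.

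The largest decrease among the named genes was in Cc2d2a, a component of the gate at the base of cilia. It had 214.1, 244.08 and 219.46 normalized counts in CTCFL U against 16.78, 11.98 and 3.62 in CTCFL I, and 362.64 and 388.87 in CTCF U against 9.68, 6.82 and 5.03 in CTCF I. The log2 fold changes were -4.47 (SE 0.4, adjusted p 9.65e-09) and -5.56 (SE 0.31, adjusted p 2.32e-08). Srgap1, a GTPase regulator downstream of Slit and Robo, had changes of -3.2 and -2.89 in the CTCFL and CTCF lines. Ube2cbp, Zfp521, Hmcn1, Fam171a1 and the snoRNA host Snhg17 were also among the genes with the largest decreases in both lines, with changes from -2.69 to -3.91 in the CTCFL line and from -2.35 to -4.19 in the CTCF line. With a minimum mean of 50, Zfp521 was not called in either line, and Hmcn1 and Ube2cbp not in the CTCF line. Ube2cbp was also not called in the CTCF line without CTCF U replicate 2. In all, 35 of the 1529 genes at resistant boundaries that were tested in both lines were lower in both (2.29%, 1.65 to 3.17%), beside 688 of all 16048 genes tested in both (4.29%).

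The 10 genes named for the largest increases in both lines had low levels in untreated CTCFL-line cells. Ocel1 was the most abundant of them, with 123.88, 93.88 and 97.54 normalized counts in CTCFL U and 527.77, 778.47 and 780.15 in CTCFL I. Its log2 fold change was 2.7 (SE 0.17, adjusted p 3.79e-11) there and 2.86 (SE 0.3, adjusted p 5.02e-06) in the CTCF line, with no overlap between U and I in either. Fam110c had 32.32, 42.49 and 32.51 in U and 182.76, 184.64 and 165.62 in I of the CTCFL line, with changes of 2.29 (SE 0.25, adjusted p 2.35e-07) and 2.48 (SE 0.22, adjusted p 1.33e-06) in the CTCFL and CTCF lines. Dbil5, a testis relative of the diazepam binding inhibitor, had changes of 2.11 and 2.77, and Gm8994 had 2.42 and 2.58. These 4 kept their calls in all other fits of each line.

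The others had few counts in untreated cells. Gm37933, Gm4778, the oligoadenylate synthetase gene Oas1e, the inflammasome gene Nlrp10, the radial spoke gene Rsph9 and the tight junction gene Cldn11 had means from 1.28 to 5.95 normalized counts in CTCFL U and from 21.1 to 68.9 in CTCFL I. The filter on low values used the mean over all groups of a line, so these genes passed it through the groups in which they were high, and Gm4778, Oas1e and Cldn11 were not called in the CTCFL line without the filter. Several of these calls rest on few reads, and that of Cldn11 was made in 3 of 14 other fits in the CTCFL line and 6 of 13 in the CTCF line. Gm4778 was called in 7 of 14 and 7 of 13, and Oas1e and Nlrp10 in 9 of 14 and 12 of 13. In all, 34 of the 1529 were higher in both lines (2.22%, 1.6 to 3.09%), beside 336 of the 16048 (2.09%).

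Some calls were made in a single line, and whether the lines differed was not tested. In the CTCFL line alone, the titin splicing regulator Rbm20 was lower, from 216.79, 266.81 and 214.82 normalized counts to 82.99, 78.84 and 80.55, with a log2 fold change of -1.51 (SE 0.23, adjusted p 1.37e-05), and in the CTCF line it had -0.26 (SE 0.17, adjusted p 2.34e-01). The developmental regulators Meis2 and Ebf1, the semaphorin receptor Plxnc1 and the axonemal gene Cfap54 were lower there too, and Pigz, Gm37305, Gm15559, Tbata and Sp110 higher. Of these, Plxnc1 was called in all 14 other fits, Cfap54 in 13, Sp110 in 11, Ebf1 in 10, Pigz in 9, Meis2 in 8, Gm37305 in 7, Tbata in 5 and Gm15559 in 4. Pigz, Gm37305, Gm15559 and Tbata had means of 1.16, 1.11, 5.79 and 2.99 in CTCFL U. They passed the filter on low values through groups in which they were high. Gm37305, Gm15559, Tbata and Meis2 were not called in the CTCFL line without the filter. Cfap54 and Tbata were not tested in the CTCF line, and there Ebf1 had -2.34 (SE 0.76, adjusted p 2.28e-02), Meis2 -1.13 (SE 0.54, adjusted p 1.05e-01), Pigz 1.84 (SE 0.53, adjusted p 1.30e-02) and Sp110 1.54 (SE 0.56, adjusted p 3.91e-02), in the same direction without a call. Plxnc1 had -0.73 (SE 0.47, adjusted p 2.38e-01) and Gm15559 0.80 (SE 0.38, adjusted p 1.09e-01) there, and Gm37305 went the other way, with -0.34 (SE 0.66, adjusted p 7.13e-01). In the CTCF line alone, the amino acid transporter Slc7a5 was lower, from 7178 and 7683 to 3055, 2840 and 2946, with a log2 fold change of -1.33 (SE 0.09, adjusted p 8.82e-08). In the CTCFL line it was -0.79 (SE 0.08, adjusted p 5.41e-08), which passed the limit on p but not that on size.

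Also in the CTCF line alone, Cdh4, Rtp2, Gm14267 and Gm2897 were lower and Gm12617, Gm26826, Ankrd65, Scx and Cdx2 higher. Of the 13 other fits, Gm14267 was called in all, Gm12617 in 12, Cdx2 in 11, Rtp2, Gm26826 and Ankrd65 in 9, Scx in 7, Cdh4 in 6 and Gm2897 in 5. Gm12617, Gm26826, Ankrd65, Scx and Cdx2 had means of 2.12, 2.17, 5.89, 1.08 and 2.7 in CTCF U. They passed the filter on low values through other groups of the line, in which they were higher. Cdh4 and Gm2897 were not called without the filter. Rtp2 and Gm26826 were not tested in the CTCFL line, and there Cdh4 had -1.28 (SE 0.42, adjusted p 1.78e-02), Gm12617 2.34 (SE 0.87, adjusted p 3.56e-02), Ankrd65 1.45 (SE 0.51, adjusted p 2.75e-02) and Scx 2.0 (SE 0.77, adjusted p 4.03e-02), also in the same direction. Gm14267 had -0.41 (SE 0.32, adjusted p 3.36e-01) there, and Gm2897 went the other way, with 0.27 (SE 0.32, adjusted p 5.41e-01). Cdx2, a trophectoderm factor, had 3.19 and 2.21 normalized counts in CTCF U and 12.58, 20.45 and 17.6 in CTCF I, with a log2 fold change of 2.26 (SE 0.45, adjusted p 1.18e-03). It did not pass without CTCF U replicate 2 or with a minimum mean of 50. Its change in the CTCFL line was 1.74 (SE 0.7, adjusted p 5.04e-02), where the U libraries were at 16.16, 12.85 and 1.16.

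Most resistant boundaries were also found in the HiCratio lists that the rule had not used. In cells with Dox, they had a boundary within 40 kb in 94.6% of cases in the CTCF line, 95.8% in the CTCFL line, 93.9% in the CLC line and 95% in the LCL line, and lost boundaries in 94.0%, 87.6%, 90.4% and 84.5%. CLC has the zinc fingers of CTCFL between the ends of CTCF, and LCL the reverse. With auxin and Dox the shares were 95.9%, 89.0%, 92.5% and 92.4%, while between 7.68% and 9.24% of the genome lay that near. All 8 lists had a boundary near 1003 of the 1323 (75.8%, 73.4 to 78.0%), beside 66 of the 894 lost ones (7.38%, 5.84 to 9.28%). The 8 lists include those with auxin, and lost boundaries were chosen on absence from both lists with auxin alone. This gap between the classes was thus largely set by the choice. Domain edges of the Crane lists lay near few of them: 9.6% of resistant boundaries in CTCFL U, 9.52% in CTCF U, 10.5% in CTCF I and 13.5% in CTCFL I, where between 17.4% and 18.6% of the genome lay that near. With ends and gaps left out these were 6.79%, 6.7%, 7.84% and 10.8%. Lost boundaries had 8.17%, 9.17%, 17.1% and 16.1%.

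The share of lost boundaries found differed more between transgenes than that of resistant ones. With auxin, a boundary lay within 40 kb of 73.7% of lost boundaries with induced CTCF (70.7 to 76.5%) and of 16.9% with CTCFL (14.6 to 19.5%). With CLC it was 20.5% (18 to 23.2%) and with LCL 24.8% (22.1 to 27.8%). The share of resistant boundaries found in the same cells ran from 89.0% with CTCFL to 95.9% with CTCF, so CTCF had the highest and CTCFL the lowest share in both classes. Lists with auxin and no induced transgene also differed from each other. Beside the 894 boundaries missing in both, 152 were missing in CTCF I alone and 213 in CTCFL I alone. Whether the shares with CTCFL, CLC and LCL exceed such differences between lists was not tested.

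The cells kept expressing genes of pluripotent cells during the treatment. All 10 pluripotency genes examined had a mean of at least 10 normalized counts in U and I cells of both lines, with Nanog the most abundant at 35328 ± 1976 in CTCFL U and 31711 ± 1706 in CTCFL I (SD, n = 3). Their sum was 134213, 127005 and 129433 in CTCFL U and 100261, 99926 and 96860 in CTCFL I, and 146327 and 147550 in CTCF U and 110751, 112551 and 112895 in CTCF I, so it was lower after auxin in every library. Esrrb, an orphan nuclear receptor of naive cells, had log2 fold changes of -0.96 (SE 0.06, adjusted p 9.02e-11) and -1.29 (SE 0.07, adjusted p 1.81e-08) in the CTCFL and CTCF lines. It was called lower in the CTCF line, as was Sox2, with -1.06 (SE 0.11, adjusted p 4.14e-06). Not every gene of the list fell: Dppa3 was called higher in both lines, with 1.11 (SE 0.11, adjusted p 2.84e-08) and 1.25 (SE 0.12, adjusted p 1.78e-06), and Klf4 had 0.03 (SE 0.06, adjusted p 6.84e-01) and 0.09 (SE 0.09, adjusted p 4.50e-01). The call of Dppa3 in the CTCFL line was lost without CTCFL I replicate 3. The part of this change in the calls near boundaries was not tested.

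Sums over markers of other cells were lower than that of the pluripotency genes, but they ran over 3 or 4 genes each against 10. By gene, not all of these markers were low. In CTCFL U, Gata4 had 1619 ± 193 normalized counts, Tubb3 1129 ± 174 and Gata6 1052 ± 66.9. The pluripotency genes Utf1 and Dppa3 had 789.9 ± 122 and 1564 ± 79 there (SD, n = 3). In CTCFL U and I, neural markers summed to between 1312 and 1721, mesoderm markers to between 158.7 and 252.0, endoderm markers to between 2365 and 3088, and fibroblast or feeder markers to between 1230 and 2044, led in CTCFL U by Tubb3, Eomes, Gata4 and Thy1. In the CTCF line the same sums were 1948 to 2544, 215.9 to 258.5, 2217 to 2742 and 1405 to 2102. The fibroblast or feeder sum was higher in every I library than in every U library of the same line. Its members differed. In the CTCFL and CTCF lines, log2 fold changes were 0.93 and 0.78 for Col1a1 and 0.66 and 1.02 for Pdgfrb. They were 0.11 and -0.11 for Thy1 and -1.65 and 0.76 for Col1a2. Pdgfrb was called higher in the CTCF line, a call made in 9 of 13 other fits. The endoderm sum was lower in every CTCFL I library, at 2365 to 2643 against 2794 to 3088, and the neural sum in every CTCF I library, at 1948 to 2147 against 2446 and 2544. The mesoderm sum was also lower in every CTCF I library, at 215.9 to 239.7 against 249.9 and 258.5. Within the endoderm list, Sox17 was higher in every CTCFL I library, at 345.0 to 363.3 against 261.3 to 323.1. Within the neural list, Sox1 was called lower in the CTCF line (log2 fold change -1.43, SE 0.14, adjusted p 2.77e-06), and Tubb3 had -0.05 (SE 0.08, adjusted p 5.99e-01). The part of these shifts in the calls was not tested. Pax6 had at most 17.42 normalized counts in any library, Mesp1 15.1 and Col1a2 28.4.

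The Ctcf message did not show the depletion, which acts on protein. Ctcf had 5064 ± 363 normalized counts in CTCFL U and 4855 ± 163 in CTCFL I (SD, n = 3), with a log2 fold change of -0.06 (SE 0.07, adjusted p 5.43e-01). Rad21 had 7861 ± 254 and 6681 ± 87.6 (SD, n = 3), a change of -0.23 (SE 0.06, adjusted p 3.52e-03) that did not reach the limit on size. In the CTCF line Ctcf had -0.09 (SE 0.07, adjusted p 2.98e-01) and Rad21 -0.19 (SE 0.08, adjusted p 6.35e-02). Ctcfl had -0.06 (SE 0.1, adjusted p 7.03e-01) in the CTCFL line, and in the CTCF line it was called lower, from 141.4 and 172.3 to 51.3, 52.26 and 53.65 normalized counts, with -1.56 (SE 0.2, adjusted p 4.25e-05). How much CTCF protein was left is not in the files.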

How the data were processed

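RNA, FLAG and RAD21 ChIP and Hi-C files deposited for the CTCF and CTCFL lines, and Hi-C lists of the CLC and LCL lines, were used as downloaded. Upstream tools named in the submitters' processing notes are Trim Galore 0.4.4, Bowtie2, SAMtools 1.3, HTSeq and deepTools, while further versions, caller settings and Hi-C read totals stated by the authors are not repeated here. In the RNA table the deposited signal is a count per gene after division by a library size factor, done by the authors. Peaks come with a −log10 q that MACS gave the authors, kept as deposited. Whole reads were recovered by dividing by each library's step, to within a tolerance of 0.1 for 100% of values up to 500 reads. For CTCFL I replicate 2 and CTCFL ID replicate 2 the step was too near 1, and these were left out of tests on reads. Of the table's columns, 16 were not used.

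A boundary was the middle of a gap of at most 40 kb between neighbouring HiCratio domains on chromosomes 1 to 19 and X, and otherwise both facing edges. Peaks of both replicates were pooled and merged where they shared at least 1 bp, and merged regions supported by each replicate were sites, counted by their middle. Start sites came from the GENCODE vM21 basic set on GRCm38 (75451 positions), whose symbols matched 46503 of the 52459 genes in the table. Windows around 63996 of 65846 bins, those with at most 50% unassembled bases, served as background. The matching of boundaries was tested on simulated lists. Sequences were read with pysam 0.24.0 in Python 3.11.15 (numpy 2.4.6, scipy 1.17.1).

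In each line, log2(normalized count + 1) of genes with a mean of at least 10 was fitted over U, I, D and ID with limma 3.58.1 (eBayes with trend) in R 4.3.3, and p-values were adjusted by Benjamini-Hochberg over 16840 genes in the CTCFL line and 16705 in the CTCF line, of which 1613 and 1824 were called. On recovered reads, edgeR 4.0.16 called 1470 and 1876 and DESeq2 1.42.0 called 1590 and 1945. Other alternatives were a pseudocount of 5, no filter or a minimum mean of 50, TMM rescaling, U and I alone, the replicate number as a block, each library left out in turn, other tolerances, windows and gap rules, Crane lists, CTCF D, CTCFL ID and other RAD21 sites, and a minimum −log10 q of 5.

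Named genes were taken from the 10 genes with the largest change in each direction among those called in both lines, and the 5 in each direction called in a single line, and 1 of them is not reported here. Named boundaries were the 5 with most expressed start sites, the 5 without sites and with most expressed start sites, the 5 with the strongest CTCF site and the first 5 along the genome with neither. Members and lists were chosen with earlier results of these data known. Profiles by distance, shares by chromosome, gene direction, combinations of sites with promoters and the count without S6 kinases were chosen after the values were seen, as were the settings without ends and gaps, with the full GENCODE set and with the middles of Crane gaps. The IgG, RNase and chimera ChIP samples were not analysed.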

Additional observations from a re-analysis of the deposited data

How the results depend on the processing

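Of 8 alternatives, 3 left the share of resistant boundaries (44.5%) within its interval. It was 22.5% with a tolerance of 20 kb, 51.5% with 80 kb, 47.5% with both edges of every gap, 38.3% with Crane lists and 30.6% with Crane gaps at their middle. Resistant minus lost boundaries, the mean number of start sites (0.983) stayed positive in all 13 alternatives. It was 0.234 with a 20 kb tolerance and 0.153 with Crane lists, both with intervals that include 0, 0.615 with Crane middles, 0.573 and 1.68 with windows of 20 and 80 kb, 0.628 with coding genes alone and 2.15 with the full annotation, where windows and gene sets change the number counted by construction.

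The difference in the share with an expressed start site (11.1 points) changed sign with a 20 kb tolerance, at -1.77, and with Crane lists, at -0.649, and not in the 14 others. The difference in CTCF sites (-13.1) was -20.9 with 20 kb and -8.92 without ends and gaps, which hold few sites, and changed sign with Crane lists, at 1.39, and Crane middles, at 0.686. That in CTCFL sites (-0.838) was 2.81 without ends and gaps, 1.96 with both edges, 1.54 with 80 kb, 1.47 with Crane lists, 0.728 with a minimum -log10 q of 5, -4.21 with CTCFL ID sites, -4.29 without replicate 2, -11.6 with 20 kb and 7.06 with Crane middles. That in RAD21 sites (-6.59) was -11.8 with a 20 kb tolerance, -3.88 with a window of 20 kb, and between -12.4 and -6.53 with either replicate left out (-12.4 without replicate 2). The RAD21 difference changed sign with Crane lists, at 0.379, Crane middles, at 0.245, CTCFL D sites, at 0.992, CTCF ID sites, at 1.34, and a minimum -log10 q of 5, at 0.272, where few sites remain. At these sign changes of expressed start sites, CTCF and RAD21, the intervals included 0, except with CTCFL D sites for RAD21 (0.0259 to 1.91). For expressed start sites they ran from -6.62 to 3.08 with 20 kb and from -3.65 to 2.33 with Crane lists. Where the construction of an alternative does not show it, the cause was not tested.

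The number of genes called at resistant boundaries was 68 and 189 of the CTCFL line (110 at 40 kb) and 77 and 236 of the CTCF line (143 at 40 kb) with windows of 20 and 80 kb. With 1 library left out it was 93 to 107 and 109 to 157, and a CTCF U library left alone is assumed to vary like the other groups. With the replicate number as a replicate block, 106 and 130 genes were called, but U and I replicates of the same number were not more alike (r from -0.064 to -0.021 in the CTCFL line, and -0.297 and -0.203 in the CTCF line). Other fits called between 88 and 116, and between 100 and 151. Over all genes, those fits called between 1357 and 1631 in the CTCFL line, and between 1332 and 1945 in the CTCF line. Numbers tested near the boundaries are not given for these windows and fits. The counts were thus not compared with the share called over all genes.

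Boundaries are known to 40 kb and from 1 list per condition, so a shift of a single bin cannot be told from noise in the calls. The ChIP and Hi-C lists carry no read depths, and RAD21 replicates are very unequal, as with 20467 and 238 peaks in CTCFL D. The CTCF line has 2 untreated RNA libraries.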
